A study of Rattus norvegicus with 105 samples.

Results

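The 7 genes described here handle zinc and related metal ions in the cell: the metallothioneins Mt1 and Mt2A, the zinc-sensing transcription factor gene Mtf1, and the zinc transporter genes Slc39a14, Slc39a10, Slc30a1 and Slc30a4. They were chosen by name, with earlier results of these data known. Of the 7, 6 were matched to a probe set of the array, 1 each, among 22954 probe sets tested, and Slc39a10 was not matched. Their log2 levels were followed in gastrocnemius muscle, a calf muscle, of male Sprague-Dawley rats that carried metal pellets for 1, 3, 6 or 12 months. The rats were about 30 days old when bought and had at least 2 weeks to settle before surgery.

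Every rat, controls included, carried 4 implanted cylinders, 2 in each limb, 1 mm across and 2 mm long. The metals were nickel, cobalt, copper, lead, tungsten, iron, aluminum and depleted uranium. Rats with pellets of tantalum had the same surgery and were the sham control. Each metal and month had 8 rats and 3 Clariom S Rat arrays, and each array took 250 ng of RNA from a pool of 2 to 3 rats. The arrays therefore fall into 35 groups of 3 pools, and nickel at 12 months was not analysed here. A p-value measures the spread between pools, not between single rats. All metals of a month were compared with the same 3 tantalum arrays, so these comparisons share their controls. Every difference is between implanted metals, since all groups carried pellets.

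Metallothioneins are small, cysteine-rich proteins that bind zinc and copper and also take up cadmium and some other foreign metals. When free zinc rises in a cell, the MTF1 protein binds to metal response elements, short DNA motifs in the promoters of the metallothionein genes and of Slc30a1, and switches these genes on. Transporters of the SLC30 family (ZnT) move zinc out of the cytosol, across the cell membrane or into vesicles, and those of the SLC39 family (ZIP) move it in. Metallothionein genes also respond to glucocorticoids, to inflammatory signals such as interleukin 6 and to oxidative stress, and in skeletal muscle their transcripts are known to increase when the muscle wastes.

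The promoters of 3 of the genes are shown because they carry the motif through which metals are known to act on them. Each is the 250 bases before the transcription start, 5′ to 3′ on the gene's own strand, from a RefSeq promoter table of the rat assembly GRCr8. Capitals mark matches to the core of the metal response element, TGCACNC or TGCGCNC, on either strand. The promoters lie at chr19:10832976-10833225 on the minus strand for Mt1, at chr19:10838709-10838958 on the minus strand for Mt2A and at chr13:106021769-106022018 on the plus strand for Slc30a1.
Mt1: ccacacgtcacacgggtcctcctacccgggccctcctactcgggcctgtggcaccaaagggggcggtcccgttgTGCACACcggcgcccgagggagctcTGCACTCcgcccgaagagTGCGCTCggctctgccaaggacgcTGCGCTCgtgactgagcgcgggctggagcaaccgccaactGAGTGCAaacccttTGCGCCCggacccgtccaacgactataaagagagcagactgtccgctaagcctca
Mt2A: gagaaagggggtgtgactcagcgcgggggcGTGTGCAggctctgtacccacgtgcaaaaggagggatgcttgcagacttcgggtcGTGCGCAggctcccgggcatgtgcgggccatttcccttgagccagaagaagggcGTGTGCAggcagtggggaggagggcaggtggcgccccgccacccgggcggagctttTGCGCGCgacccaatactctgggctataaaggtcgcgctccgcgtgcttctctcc
Slc30a1: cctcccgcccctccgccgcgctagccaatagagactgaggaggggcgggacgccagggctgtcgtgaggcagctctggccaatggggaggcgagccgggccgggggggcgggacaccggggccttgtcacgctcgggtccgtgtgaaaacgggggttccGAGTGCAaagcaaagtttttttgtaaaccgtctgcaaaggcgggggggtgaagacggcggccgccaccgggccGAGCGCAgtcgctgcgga
The Mt1 promoter held 6 matches, and 0.0219% of the 27457 promoters in the table held 6 or more. Mt2A held 4, and 0.277% of promoters held at least as many. Slc30a1, Mtf1 and Slc30a4 held 2 each, which 5.13% of promoters reached, and 21.2% held at least 1. Slc39a10 held 0, and the promoter of Slc39a14 was not analysed here. None of these matches overlapped another. A match describes the letters only, and no factor's binding was measured here.

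Nickel was the metal whose muscle differed most in these genes. With nickel pellets Mt1 was 2.56-fold higher than with tantalum at 1 month and 8.53-fold higher at 3 months, Mt2A was 3.87-fold higher and Slc39a14, a zinc and iron importer, 1.38-fold higher at 3 months, and at 6 months the nickel and tantalum arrays overlapped for each of the 6 measured genes. Cobalt at 3 months came with 2.52-fold higher Mt1 and 1.77-fold higher Mt2A. Lead at 1 month came with lower Mt2A and lower Slc30a4, a vesicular zinc transporter. These 8 calls, 6 higher and 2 lower, are all that passed among 186 tests of the 6 genes in 31 comparisons of a metal with tantalum of its month (limma, Benjamini-Hochberg adjustment over all probe sets, adjusted p below 0.05, two-sided). At an unadjusted p below 0.05, 35 of the 186 passed. Over all probe sets, the number at that threshold ran from 875 of 22954 (depleted uranium, 3 months) to 4609 (lead, 1 month) per comparison.

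Read against all probe sets, the share called was 0.443% over the 31 comparisons together, and it was uneven. It was 0.797% for nickel at 1 month, 3.42% for nickel at 3 months, 5.46% for cobalt at 3 months and 3.02% for lead at 1 month. In the other 27 comparisons 0.0381% of all probe sets were called and 0 of the 162 tests of these genes passed, with 21 at an unadjusted p below 0.05. At that unadjusted threshold, these comparisons held from 875 (depleted uranium, 3 months) to 2546 (aluminum, 3 months) of 22954 probe sets each. The total of 8 moved with single arrays and with the processing, as given further below. Without tantalum 1 month replicate 3 it was 13, and 5 of the added calls were a lower Slc30a4 at 1 month.

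**Figure D1:**
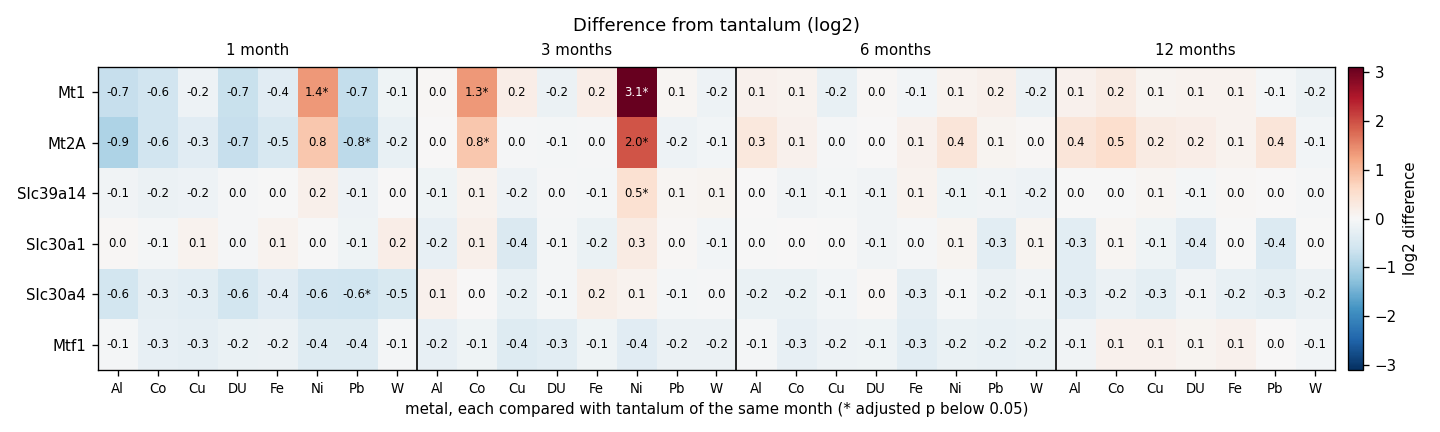
Difference from tantalum of the same month (log2) for the 6 measured genes in 31 metal-by-month comparisons, with red for higher, blue for lower and an asterisk for an adjusted p below 0.05. The darkest cells are nickel at 3 months, 3.09 for Mt1 and 1.95 for Mt2A, and at 1 month the 7 metals other than nickel are blue for both metallothioneins.

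At 3 months the 3 nickel pools had Mt1 levels of 9.89, 11.16 and 9.98 (log2 intensity), a mean of 10.34 ± 0.71 (SD, n = 3). The 3 tantalum pools had 7.41, 7.23 and 7.10, a mean of 7.25 ± 0.15. The groups did not overlap, and the lowest nickel pool lay well above the highest tantalum pool. The difference was 3.09 ± 0.24 (SE), or 8.53-fold, with an adjusted p of 3.40e-16 in limma. Fewer cells of a type and less RNA per cell cannot be told apart in such whole-muscle RNA, and neither can more of each. Mt2A behaved alike on its own scale: the nickel pools had 11.24, 12.13 and 11.34 and the tantalum pools 9.39, 9.64 and 9.84. Again no pools overlapped, and replicate 2 was the highest nickel pool for both genes. The Mt2A difference was 1.95 ± 0.24, or 3.87-fold, adjusted p 3.22e-09. Both calls held in each alternative analysis tried, and leaving out single arrays gave differences from 2.68 to 3.32 for Mt1 and from 1.67 to 2.12 for Mt2A. The size of these adjusted p rests on the spread shared across all groups and months. For Mt1 that spread was 0.30, below the 0.71 among the nickel pools. With only the 6 arrays compared in the limma fit, the adjusted p was 0.00287 for Mt1 and 0.00612 for Mt2A.

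At 1 month the nickel pools were uneven. Mt1 was 8.18, 9.96 and 9.88 with nickel and 7.69, 7.72 and 8.54 with tantalum. Nickel replicate 1 lay below tantalum replicate 3, so the groups overlapped, while the other nickel pools lay far above. The difference was 1.35 ± 0.24, or 2.56-fold, adjusted p 0.000305. This call rests on the spread being shared across all groups and months: fitted on the arrays of that month alone its adjusted p was 0.0672, on the 6 arrays compared 0.464, and without nickel replicate 3 the difference was 1.08 with an adjusted p of 0.0539. Mt2A had 10.07, 11.57 and 11.50 with nickel and 9.81, 9.99 and 10.84 with tantalum. The same nickel pool was the low one and the same tantalum pool the high one, and the difference of 0.83 ± 0.24 did not pass (adjusted p 0.0702). Without nickel replicate 1 it was 1.32 (adjusted p 0.000177), and without tantalum replicate 3 it was 1.15 (adjusted p 0.00558).

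At 6 months Mt1 was 7.23, 7.23 and 7.53 with nickel and 7.41, 7.27 and 7.03 with tantalum. The pools were interleaved, and the difference was 0.10 with a 95% interval from -0.39 to 0.58. For Mt2A the nickel pools had 9.60, 9.95 and 10.11 and the tantalum pools 9.43, 9.61 and 9.50, a difference of 0.38 with an interval from -0.09 to 0.85. Nickel replicates 2 and 3 lay above every tantalum pool and replicate 1 among them. The smaller 6-month differences were themselves tested against those of 3 months. The nickel difference fell by 2.995 for Mt1 (SE 0.35, adjusted p 1.12e-08) and by 1.57 for Mt2A (SE 0.34, adjusted p 0.00248), in a contrast that called 1.69% of all probe sets. From 1 to 3 months it grew by 1.74 for Mt1 (SE 0.35, adjusted p 0.0169), 1 of few calls in a contrast that called 0.0523%, and this step lost its call without nickel 1 month replicate 1 (1.16), nickel 3 month replicate 2 (1.33), tantalum 1 month replicate 3 (1.46) or tantalum 3 month replicate 3 (1.67). Mt2A grew by 1.12 between those months and did not pass (adjusted p 0.267). Over the 3 months together, the moderated F test of a change passed for Mt1 (adjusted p 7.44e-08) and Mt2A (adjusted p 0.00750), with 1.22% of all probe sets called.

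**Figure D2:**
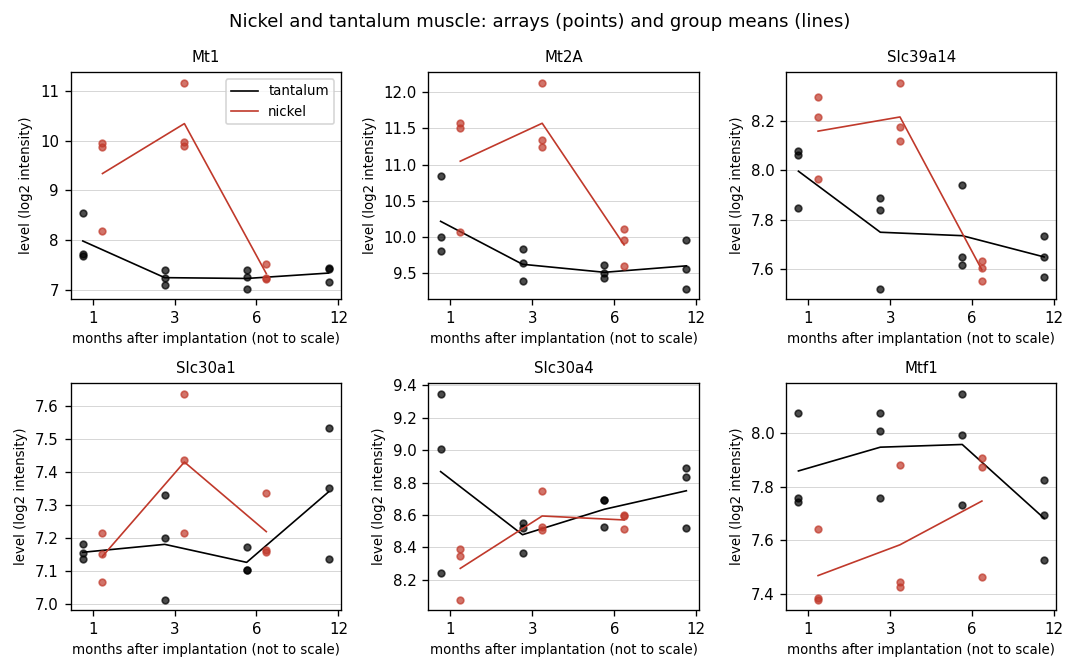
Levels (log2 intensity) of the 6 measured genes in nickel (red) and tantalum (black) muscle by month, each point 1 array and each line joining group means. Nickel reaches 10.34 for Mt1 and 11.57 for Mt2A at 3 months and at 6 months its arrays overlap those of tantalum, with the nickel mean for Mt2A still the higher (9.89 and 9.51).

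Cobalt gave the only other metallothionein increases against tantalum that passed. At 3 months Mt1 was 8.46, 8.45 and 8.84 with cobalt, each above the highest tantalum pool of 7.41. The difference was 1.33 ± 0.24, or 2.52-fold, adjusted p 2.69e-05. Mt2A was 10.23, 10.57 and 10.54, also all above tantalum, and its difference was 0.83 ± 0.24, or 1.77-fold, adjusted p 0.0186. This second call was lost when cobalt replicate 2 (0.77) or 3 (0.78), or tantalum replicate 1 (0.71) or 2 (0.83), was left out, and with p-values adjusted over the 31 comparisons together (adjusted p 0.149). At 1 month the cobalt pools had Mt1 of 7.46, 7.68 and 7.05, all below the tantalum pools, and at 6 months 7.31, 7.42 and 7.33, overlapping tantalum at 7.41, 7.27 and 7.03. The cobalt difference grew from 1 to 3 months by 1.92 for Mt1 (SE 0.35, adjusted p 3.37e-05) and by 1.43 for Mt2A (SE 0.34, adjusted p 0.00277), with 3.66% of all probe sets called. From 3 to 6 months it fell by 1.21 for Mt1 (adjusted p 0.0237), with 3.95% called, and the fall of 0.68 for Mt2A did not pass (adjusted p 0.361). The F test over its months passed for Mt1 (adjusted p 0.000356) and Mt2A (adjusted p 0.0139), with 4.18% called.

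The step of Mt2A from 1 to 3 months lost its call without tantalum 1 month replicate 3 (1.11, adjusted p 0.0561). The Mt1 step from 3 to 6 months lost it without cobalt 3 month replicate 3 (-1.09), tantalum 3 month replicate 3 (-1.14) or tantalum 6 month replicate 1 (-1.13). At 12 months cobalt replicate 2 stood above its group, at 8.03 for Mt1 beside 7.28 and 7.45 and at 10.75 for Mt2A beside 9.71 and 9.88. Neither gene passed against tantalum at that month (differences 0.25 and 0.51).

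**Figure D3:**
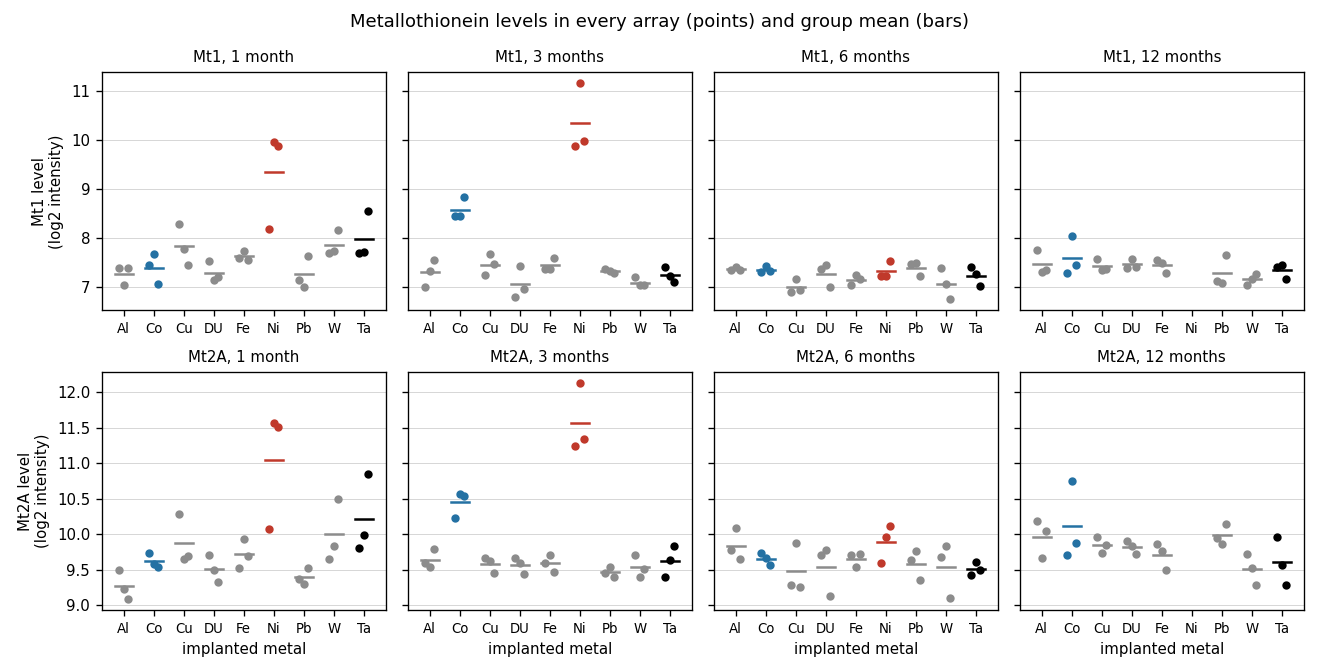
Mt1 (top) and Mt2A (bottom) level in each array (points, log2 intensity) with the group mean (bar), by implanted metal and month. Nickel (red) stands above at 1 and 3 months, cobalt (blue) at 3 months, and tantalum (black) is second to nickel at 1 month.

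Nickel and the other metals were also compared directly, which does not use the tantalum arrays as reference. At 1 month Mt1 was higher with nickel than with each of the 7 other metals, by 1.48 (tungsten) to 2.08 (lead), and Mt2A by 1.05 (tungsten) to 1.78 (aluminum), and all of these passed. The shares of all probe sets called in these comparisons were 2.32% against aluminum, 0.484% against cobalt, 0.135% against copper, 0.841% against depleted uranium, 0.414% against iron, 1.87% against lead and 0.767% against tungsten. The nickel and copper pools overlapped for both genes, since copper replicate 1 (8.28 for Mt1 and 10.29 for Mt2A) lay above nickel replicate 1, and so did tungsten replicate 3 for Mt2A (10.50). The Mt1 difference between nickel and copper, 1.505 (adjusted p 0.000113), did not pass with the 1-month arrays alone (adjusted p 0.317), with the 6 arrays alone (adjusted p 0.877) or without nickel replicate 3 (1.23, adjusted p 0.0666). That of Mt2A, 1.18 (adjusted p 0.00580), did not pass without nickel replicate 2 (0.91) or 3 (0.95) or copper replicate 2 (1.06) or 3 (1.08).

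At 3 months the nickel pools were above every pool of the 7 other metals for both metallothioneins. Mt1 differed by 1.76 (cobalt) to 3.28 (depleted uranium) and Mt2A by 1.13 (cobalt) to 2.11 (lead), and all passed. The shares called were 5.66% against aluminum, 2.2% against cobalt, 3.6% against copper, 2.66% against depleted uranium, 4.34% against iron, 2.9% against lead and 3.66% against tungsten. Against cobalt, the nearest metal, the adjusted p was 1.06e-07 for Mt1 and 0.000975 for Mt2A, the latter lost without nickel replicate 2 (0.84, adjusted p 0.0746). At 6 months 0 of 42 tests of nickel against the other metals passed for the 6 genes in limma, with 2 at an unadjusted p below 0.05. These comparisons called 0.000622% of all probe sets, so the count says nothing particular to these genes. At the unadjusted threshold they held from 687 (tungsten) to 1064 (depleted uranium) of 22954 probe sets each.

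Copper is a metal that metallothioneins bind, and it came with no called difference in Mt1. At 1 month its pools had 8.28, 7.78 and 7.44, against 7.69, 7.72 and 8.54 for tantalum, and the pools were interleaved. The difference was -0.15 with a 95% interval from -0.64 to 0.34, so an increase of the size seen with nickel lies outside the interval. This interval rests on the spread shared across all groups, 0.30, while the SD was 0.42 among the copper pools and 0.48 among the tantalum pools. The sign of the difference turned without copper replicate 3 (0.04) and without tantalum replicate 3 (0.13). Against the 6 metals other than nickel and tantalum, copper passed in 0 of 36 tests of these genes at 1 month in limma, with 5 at an unadjusted p below 0.05. The share called over all probe sets in those comparisons was 1.11%, near which a count of 0 of 36 lies. At the unadjusted threshold they held from 1320 (iron) to 4746 (lead) of 22954 probe sets each. Mt1 was 0.57 above aluminum and 0.58 above lead there (adjusted p 0.313 and 0.159).

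Over all 35 groups, Mt1 was highest with nickel at 3 months, then nickel at 1 month (9.34), cobalt at 3 months (8.58) and tantalum at 1 month (7.98), and lowest with copper at 6 months (6.998). Mt2A had the same leading 4 groups, at 11.57, 11.05, 10.45 and 10.22, and was lowest with aluminum at 1 month (9.27). Each of these leading groups had arrays that overlapped the next in the order, for both genes. The group means of Mt1 and Mt2A had a Pearson correlation of 0.946 (Spearman 0.764) over the 35 groups and 0.798 over the 33 without nickel at 1 and 3 months. Deviations of single arrays from their group mean correlated at 0.771 over all arrays, so pools high in 1 gene tended to be high in the other. These are descriptions, since both genes were read on the same arrays.

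**Figure D4:**
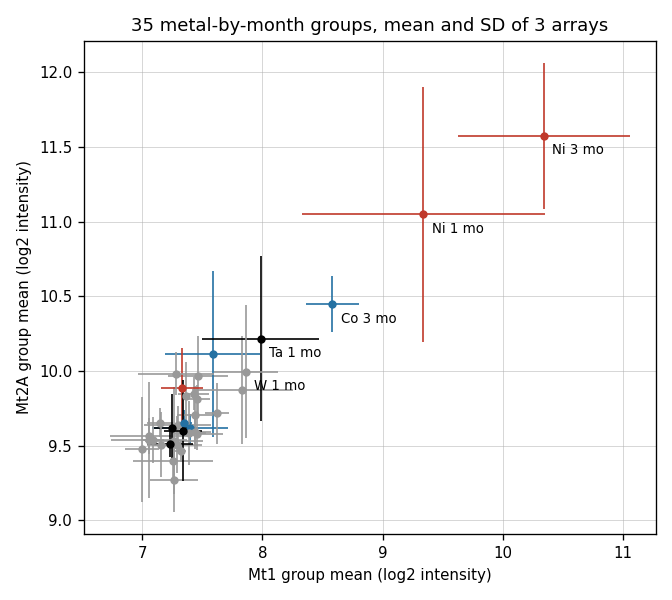
Mt2A against Mt1 group means (log2 intensity) in the 35 groups, with bars of 1 SD over 3 arrays, nickel in red, cobalt in blue and tantalum in black. Nickel at 3 and 1 months, cobalt at 3 months and tantalum at 1 month are the highest groups for both genes.

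The tantalum control itself was high at 1 month. For both metallothioneins it ranked second of the 9 metals then, below only nickel. Its replicate 3 was its highest pool, at 8.54 for Mt1 and 10.84 for Mt2A. The 7 metals other than nickel all had lower group means than tantalum for both genes at 1 month, from -0.12 (tungsten) to -0.73 (lead) for Mt1 and from -0.22 (tungsten) to -0.95 (aluminum) for Mt2A. In tantalum muscle Mt1 was 0.74 lower at 3 than at 1 month and 0.75 lower at 6 months, and Mt2A 0.59 and 0.71 lower, without passing (adjusted p 0.198 and 0.0557 for Mt1, 0.325 and 0.0678 for Mt2A). Among the marker lists, the mean of 10 macrophage genes was 7.13 in replicate 1 of these pools, lower in replicate 2 and 7.85 in replicate 3, and that of 6 fibroblast genes was 10.14, 10.24 and 10.98. Replicate 3 was the highest pool on both lists, and their part in the metallothionein levels was not tested.

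Lead at 1 month is where these high controls meet a call. Mt2A was 9.37, 9.30 and 9.52 with lead and 9.81, 9.99 and 10.84 with tantalum. No pools overlapped, and the difference was -0.82 ± 0.24 (adjusted p 0.0387). Without tantalum replicate 3 it was -0.50 (adjusted p 0.269), and it also lost its call without lead replicate 1 (-0.80) or 2 (-0.77) or tantalum replicate 2 (-0.93). Against the mean of the other metals it was -0.46 (adjusted p 0.104). That reference left out tantalum and included nickel, whose mean of 11.05 was the highest of the month, so part of the -0.46 is the high nickel level. The call was also lost after a second quantile normalization (-0.70), with array weights (-0.73) and with p-values adjusted over the 31 comparisons together (adjusted p 0.155). Mt1 was 0.73 lower with lead and did not pass (adjusted p 0.0771). The same difference passed in limma without nickel 1 month replicate 1 (adjusted p 0.0351), an array outside this comparison that enters only through the shared spread.

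Slc39a14 encodes ZIP14, an importer of zinc, iron and manganese that inflammatory signals are known to induce. At 3 months it was 8.17, 8.35 and 8.12 with nickel and 7.89, 7.52 and 7.84 with tantalum. The nickel pools were all higher. The difference was 0.47 ± 0.11, or 1.38-fold, adjusted p 0.00475, and it lost its call without nickel replicate 2 (0.40) or tantalum replicate 2 (0.35), with adjusted p of 0.0806 and 0.116. The call was also lost with only the 6 arrays compared in the fit. In the direct comparisons it was higher with nickel than with each of 6 metals, by 0.38 (tungsten) to 0.62 (copper), while against cobalt the difference of 0.35 did not pass (adjusted p 0.0904). From 3 to 6 months the nickel difference fell by 0.61 (SE 0.16, adjusted p 0.0223), a call lost without nickel 3 month replicate 2 (-0.54), tantalum 3 month replicate 2 (-0.49) or tantalum 6 month replicate 1 (-0.50). At 1 month the nickel pools had 7.96, 8.30 and 8.22 and overlapped tantalum at 8.08, 7.85 and 8.06.

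In tantalum muscle over the year, Slc39a14 was the 1 member with a called change. It was 7.65, 7.57 and 7.73 at 12 months, all below the 1-month pools, a difference of -0.35 ± 0.11 (adjusted p 0.0377) in a comparison that called 7.85% of all probe sets. The call was lost without either of tantalum 1 month replicates 1 (-0.31) and 3 (-0.32) or tantalum 12 month replicates 1 (-0.35) and 2 (-0.31). With the replicate block Slc39a14 was at -0.31 (adjusted p 0.0785) and did not pass, while Slc30a1 did (0.36, adjusted p 0.0480). As the block was coded, those 2 values compare the fitted replicate 1 levels of the months, not the group means. They therefore do not show whether the change of the group means depends on the block. After a second quantile normalization Slc39a14 was at -0.29 (adjusted p 0.0814) and Mt2A from 1 to 6 months was called instead (-0.76, adjusted p 0.0479). With arrays centred on the median Slc39a14 was at -0.31 (adjusted p 0.0723).

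Slc30a1 encodes ZnT1, the zinc exporter of the cell membrane and a textbook MTF1 target. It was highest of all groups with nickel at 3 months, at 7.44, 7.64 and 7.22, but these pools overlapped tantalum at 7.01, 7.20 and 7.33. The difference of 0.25 had a 95% interval from -0.03 to 0.53 and did not pass (adjusted p 0.462). Directly compared at 3 months, nickel was above aluminum by 0.49 (adjusted p 0.0200) and above copper by 0.70 (adjusted p 0.000401), and passed against none of the other 5 metals. Copper at 3 months had the lowest group mean of the 35, with pools at 6.72, 6.78 and 6.69 that all lay below tantalum. Its difference from tantalum was -0.45 and did not pass (adjusted p 0.208), though with array weights it did (-0.44, adjusted p 0.0494). Against the mean of the other metals at 3 months, Slc30a1 differed by -0.42 with copper (adjusted p 0.0290) and by 0.38 with nickel (adjusted p 0.0228), and both passed. Copper and nickel were each part of the other's reference. Lead at 12 months had 7.28, 6.46 and 6.99, with replicate 2 the lowest array of all.

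Slc30a4 encodes ZnT4, which loads zinc into vesicles. Against tantalum of the same month its mean was lower in 26 of the 31 comparisons. Tantalum at 1 month was its highest group, with 9.01, 9.35 and 8.24, so that its replicate 3 was here the low pool and lay within the range of the other metals. Lead at 1 month had 8.31, 7.88 and 8.54 and overlapped tantalum. The difference was -0.62 ± 0.16 (adjusted p 0.0242). It was -0.38 without tantalum replicate 2 and -0.55 without tantalum replicate 1, neither passing, -0.94 without tantalum replicate 3, and -0.44 without lead replicate 2, which did not pass either. Against the mean of the other metals, lead differed by -0.17 (adjusted p 0.403). The call was lost after a second quantile normalization too (-0.50, adjusted p 0.0711), and with joint adjustment over the 31 comparisons (adjusted p 0.0838). All 8 metals were below tantalum at 1 month, by -0.28 (cobalt) to -0.62 (lead), and nickel was at -0.60 (adjusted p 0.0563). The nickel difference in Slc30a4 passed without the dimmest 30% of probe sets (adjusted p 0.0411), with an intensity trend and robust variances (adjusted p 0.0412) and with array weights (-0.66, adjusted p 0.0108).

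Mtf1 encodes the zinc sensor itself, and its group means spanned the narrowest range of the 6 genes. They spanned 0.50, from 7.46 (lead at 1 month) to 7.96 (tantalum at 6 months). With nickel it was 7.64, 7.39 and 7.38 at 1 month, below all tantalum pools (7.74, 8.07 and 7.76). At 3 months nickel had 7.44, 7.43 and 7.88 and tantalum 8.01, 7.76 and 8.07, and at 6 months 7.46, 7.87 and 7.90 and 7.99, 7.73 and 8.15. The pools overlapped at both of these months, with the nickel mean the lower. No single month passed, and the mean of the 3 monthly differences was -0.32 ± 0.09 (adjusted p 0.0233), in a comparison that called 2.83% of all probe sets.

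That call was lost without any 1 of 9 arrays: nickel 1 month replicates 2 (-0.31) and 3 (-0.31), nickel 3 month replicates 1 (-0.30) and 2 (-0.29), nickel 6 month replicate 1 (-0.27), tantalum 1 month replicate 2 (-0.28), tantalum 3 month replicates 1 (-0.31) and 3 (-0.30), and tantalum 6 month replicate 3 (-0.29). Tantalum had the highest Mtf1 of the 9 metals at 1, 3 and 6 months, and Mtf1 was below tantalum in 26 of the 31 comparisons over all metals. The means of nickel over its months also passed for Mt1 (1.52, adjusted p 5.93e-13) and Mt2A (1.05, adjusted p 3.70e-08), and these 3 were all that passed among 48 such tests of the 6 genes over the 8 metals.

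The wider set of zinc genes comprised the metallothioneins, Mtf1 and the SLC30 and SLC39 families, of which 27 of 29 were measured. With nickel at 3 months 5 were higher and 0 lower, with a median difference of 0.09 beside -0.02 over all probe sets, and 3.42% of all probe sets called. With cobalt at 3 months 5 were higher and 1 lower, with medians of 0.11 and -0.05 and 5.46% called. Nickel at 1 month called only Mt1, and lead at 1 month only the lower Mt2A and Slc30a4. Beside the members, the largest difference was in Slc39a8, which encodes ZIP8, an importer of zinc, manganese and iron. At 3 months it was 7.19, 7.45 and 7.05 with nickel and 5.56, 5.26 and 5.87 with tantalum, with no overlap. The difference was 1.67 ± 0.22, or 3.17-fold, adjusted p 4.62e-08.

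With cobalt Slc39a8 was 6.59, 6.73 and 7.001, also all above tantalum, by 1.21 ± 0.22 (adjusted p 2.62e-05). Nickel and cobalt differed in it by 0.46 and did not pass (adjusted p 0.520). Its nickel difference fell by 1.93 from 3 to 6 months (adjusted p 2.28e-05) and its cobalt difference by 1.38 (adjusted p 0.00165). Copper at 1 month had 6.78, 5.80 and 6.32, above tantalum at 5.54, 5.47 and 5.20, by 0.90 ± 0.22 (adjusted p 0.0405) in a comparison that called 0.322% of all probe sets. That call was lost after a second quantile normalization (0.84), without copper replicate 1 (0.66) or 3 (0.89), and without tantalum replicate 1 (0.97), 2 (0.93) or 3 (0.79).

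Slc39a6, which encodes the importer ZIP6, was 6.87, 7.07 and 7.06 with nickel and 7.08, 6.89 and 6.80 with cobalt at 3 months, above tantalum at 6.20, 6.77 and 6.27. The differences were 0.59 ± 0.14 (adjusted p 0.00395) and 0.51 ± 0.14 (adjusted p 0.00943). The nickel call was lost without tantalum replicate 1 (0.48) or 3 (0.52), and the cobalt call without those arrays (0.40 and 0.44) or cobalt replicate 1 (0.43). Slc30a7, which encodes ZnT7 and loads zinc into the Golgi, passed with cobalt at 3 months, with 8.15, 8.23 and 8.29 against 7.58, 7.71 and 7.74 for tantalum, a difference of 0.55 ± 0.11 (adjusted p 0.000154). With nickel the difference was 0.22 (adjusted p 0.373), and the test of nickel against cobalt did not pass (-0.33, adjusted p 0.124). Mt3, the brain metallothionein, was lower with cobalt by 0.49 (adjusted p 0.0449), at 4.41, 4.25 and 4.43, close to the control probe sets' median of 4.09, and the call was lost after a second quantile normalization (adjusted p 0.0952) and without any 1 of the 3 cobalt pools (-0.51, -0.43 and -0.52) or tantalum replicate 1 (-0.45) or 2 (-0.39). The nearest genes that did not pass were Slc39a7 with cobalt (0.43, adjusted p 0.0937) and, among members, Mtf1 with lead at 1 month (-0.40, adjusted p 0.117).

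**Figure D5:**
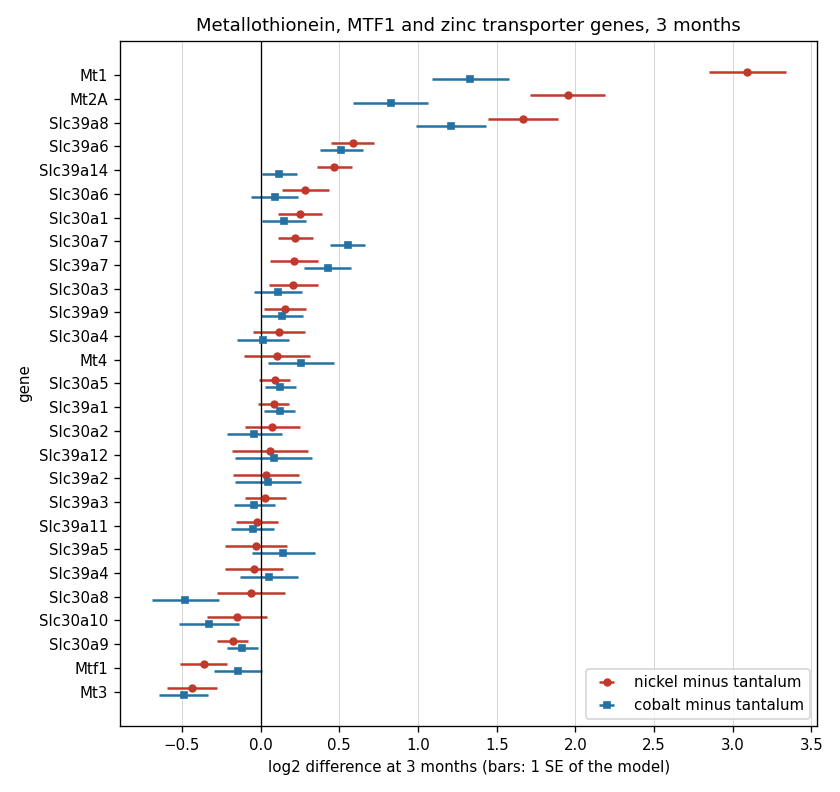
Difference from tantalum at 3 months (log2, bars of 1 SE) for the 27 measured metallothionein, Mtf1 and zinc transporter genes, nickel in red and cobalt in blue, ordered by the nickel value. Mt1, Mt2A and Slc39a8 lie apart from the rest with nickel, at 3.09, 1.95 and 1.67.

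Other genes known to respond to metals or oxidants gave values beside these. Hmox1, which encodes heme oxygenase and answers to oxidative stress and heme, was 8.91, 10.03 and 8.87 with nickel, 9.29, 10.04 and 10.04 with cobalt and 6.09, 5.76 and 6.06 with tantalum at 3 months. The differences were 3.30 ± 0.31 for nickel and 3.82 ± 0.31 for cobalt (adjusted p 1.29e-13 and 2.81e-17), and at 1 month nickel was 1.66 higher (adjusted p 0.000436). At 1 month the low nickel pool of the metallothioneins, replicate 1, was the low one for Hmox1 too (6.76 beside 9.10 and 9.16). Slc40a1, the iron exporter ferroportin, was higher at 3 months by 1.51 with nickel and 0.89 with cobalt (adjusted p 2.45e-07 and 0.00239). These were the only 2 of 13 measured genes of that list to pass in either comparison.

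Of the known inducers other than metals, 8 glucocorticoid targets gave 0 calls in limma with nickel at 1 or 3 months or cobalt at 3 months, with 2 at an unadjusted p below 0.05 in each, and medians of -0.19, -0.15 and -0.14. With lead at 1 month they also gave 0 calls, with 4 at an unadjusted p below 0.05 and a median of -0.32. In the same order, 2445, 3111, 3526 and 4609 of 22954 probe sets had an unadjusted p below 0.05. Of 8 targets of interleukin 6 and STAT3, 3 were higher with nickel at 3 months: Osmr, the oncostatin M receptor, by 0.78, Socs3, a feedback inhibitor of cytokine signalling, by 0.71, and Junb, a transcription factor, by 0.62 (adjusted p 0.00105, 0.00429 and 0.0145). With cobalt 1 was higher, Junb by 0.52 (adjusted p 0.0406). At 1 month none of the list passed in limma, with a smallest adjusted p of 0.106 for nickel (Socs3, 0.55) and 0.118 for lead (Lcn2, -0.54). The shares of all probe sets called were 0.797% and 3.42% with nickel at 1 and 3 months. They were 5.46% with cobalt at 3 months and 3.02% with lead at 1 month.

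Markers of other cell types moved at the same times. Over all probe sets the shares called were 0.797% with nickel at 1 month and 3.42% at 3 months. They were 5.46% with cobalt at 3 months and 3.02% with lead at 1 month. Of 10 macrophage genes, 7 were higher with nickel and 9 with cobalt at 3 months, 0 fell, and the array means of the list were 8.02 to 8.32 with nickel, 8.25 to 8.86 with cobalt and 7.13 to 7.58 with tantalum. With nickel at 1 month 0 of the 10 passed in limma, 6 had an unadjusted p below 0.05, and the array means were 7.61 to 8.08 beside tantalum at up to 7.85, so the groups overlapped. Of 6 fibroblast genes, 4 were higher with nickel at 3 months (array means 10.46 to 10.59, tantalum 9.58 to 9.76). Of 6 genes of immature muscle, 3 were higher with nickel then (8.82 to 9.09, tantalum 7.72 to 7.90). Of 6 lymphocyte genes, all 6 were higher with cobalt at 3 months (6.66 to 6.93, tantalum 4.86 to 4.99) and 1 with nickel (5.16 to 5.49). Of 4 neutrophil genes 1 was higher with nickel at 3 months, and with lead at 1 month 1 of 2 Schwann cell genes and 1 of 2 skin genes were higher. The part of these lists in the metallothionein and transporter differences was not tested. The 9 measured genes of mature muscle fibres gave 0 calls with nickel at 1, 3 and 6 months. They gave 0 with cobalt at 3 months and lead at 1 month too, and 0 at an unadjusted p below 0.05 in any of these. Nickel at 6 months called 0 of all probe sets against tantalum, so its count says nothing particular to these genes. The fibre genes were bright in all of those groups and their controls (array means from 13.23 to 13.39), so the defining markers of the labelled tissue were present.

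Among 14851 named genes compared, those whose 35 group means followed Mt1 most closely were Mt2A (r = 0.946), Ccl3, a macrophage chemokine (0.911), Slc2a1, the glucose transporter GLUT1 (0.894), Tnnt2, a troponin of heart and immature muscle (0.889), and Rab31, a vesicle GTPase (0.861). All of these correlations are over groups and lean on nickel: without nickel at 1 and 3 months they were 0.798, 0.596, 0.723, 0.554 and 0.721. By rank, Ccl3 (0.351) and Slc2a1 (0.380) followed Mt1 less closely than Mt2A did (0.764). Slc2a1 was 8.57, 9.12 and 8.81 with nickel at 3 months and 7.73, 7.67 and 7.12 with tantalum, and Tnnt2 was 8.22, 8.31 and 8.86 and 5.93, 5.80 and 5.70. Neither gene's pools overlapped.

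The arrays were alike in overall level, with medians from 6.36 to 6.54, and each array correlated with the others at a mean of 0.970 or more. No arrays held identical values. Each of the 6 genes lay above the control probe sets' median on every array.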

How the data were processed

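The values were the authors' deposited log2 intensities of Clariom S Rat arrays, 1 value per probe set and array, made with RMA in the oligo package under R 4.0.1, per the submitters' processing notes. Whether all arrays were normalized in 1 run is not given in the sources used here. RMA compresses differences of dim probe sets, and no level was compared between genes. The 23 control probe sets were left out of 22977, and 14855 of the 22954 tested had a gene symbol.

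One mean per metal and month was fitted over all 105 arrays with limma 3.58.1 in R 4.3.3 (lmFit and eBayes, residual degrees of freedom 70). P-values were two-sided and adjusted by Benjamini-Hochberg over all probe sets within each comparison, with a threshold of 0.05. Intervals are 95% intervals from the moderated model. The number of arrays, 3 per group, limits the precision. The fit was tested on simulated data that gave each probe set the same spread in every group. That test cannot show how the fit behaves where groups differ in spread.

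The members and all gene lists were chosen with earlier results of these data known. Named in the text are the members, the genes of the wider zinc list that passed in any comparison with tantalum and the 2 nearest to passing, the 5 genes most like Mt1 over group means, and up to 4 genes of each other list with the smallest adjusted p. The alternatives were a replicate block, a filter on the dimmest 30% of probe sets, other scalings, variance models and array weights, fewer arrays in the fit, joint adjustment, another reference group, and leaving out single arrays (36 fits). That other reference was the mean of the other metals of the month, with tantalum left out and nickel included where it was measured. Deviations of same-numbered arrays correlated above 0.1 for each number in 13 of 31 comparisons, none of them at 1 or 3 months.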

Additional observations from a re-analysis of the deposited data

Results flagged for a closer look

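For 7 results the difference from tantalum itself differed between months, by a test of that difference in limma adjusted over all probe sets. With cobalt it grew from 1 to 3 months by 1.92 for Mt1 (SE 0.35, adjusted p 3.37e-05) and by 1.43 for Mt2A (SE 0.34, adjusted p 0.00277), and all 3 cobalt pools lay below tantalum at 1 month and above it at 3 months. From 3 to 6 months the cobalt difference changed by -1.21 for Mt1 (SE 0.35, adjusted p 0.0237). With nickel it grew from 1 to 3 months by 1.74 for Mt1 (SE 0.35, adjusted p 0.0169). From 3 to 6 months the nickel difference changed by -2.995 for Mt1 (SE 0.35, adjusted p 1.12e-08), by -1.57 for Mt2A (SE 0.34, adjusted p 0.00248) and by -0.61 for Slc39a14 (SE 0.16, adjusted p 0.0223). The cobalt contrasts called 3.66% (1 to 3 months) and 3.95% (3 to 6 months) of all probe sets, and those of nickel 0.0523% and 1.69%. The steps from 1 month use the tantalum arrays of that month, whose replicate 3 was high in both metallothioneins. Leaving out single arrays ended the cobalt calls of Mt2A from 1 to 3 months and of Mt1 from 3 to 6 months. It also ended the nickel calls of Mt1 from 1 to 3 months and of Slc39a14 from 3 to 6 months.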

How the results depend on the processing

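The 8 calls of members against tantalum became 5 with only the arrays of the same month in the fit, 4 with only the 6 arrays compared and 5 with p-values adjusted over the 31 comparisons together. They were 6 after a second quantile normalization, which ended both lead calls, and 11 with array weights, which ended the lead call of Mt2A and added Mt2A and Slc30a4 with nickel and Slc30a4 with depleted uranium at 1 month and Slc30a1 with copper at 3 months. They were 11 with the replicate block and 10 against the other metals. The 10 include a lower Mt1 with tungsten at 3 months (-0.84, adjusted p 0.0253), where nickel at 10.34 was part of the reference. Leaving out single arrays gave 6 to 13 calls. The 3 calls among means over months became 5 with the replicate block and 2 to 4 when single arrays were left out. The block also brought Mt2A and Slc30a4 with nickel (adjusted p 0.0430 and 0.0444) and Mt2A with aluminum (adjusted p 0.0412) below the threshold at 1 month, where the numbers did not pair the arrays, and it changed no member's call against tantalum at 6 or 12 months. The 1 change over months in tantalum became 3 without the dimmest 30% of probe sets and 0 with arrays centred on the median, and 0 to 4 without single arrays. The 4 came without nickel 1 month replicate 1: Mt1 from 1 to 6 and 1 to 12 months, Mt2A from 1 to 6 months and Slc39a14.

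For Mt1, nickel minus tantalum at 1 month (1.35) had an adjusted p of 0.0672 with arrays of the same month and 0.464 with 6 arrays, and lay between 1.04 and 1.94 without single arrays. Nickel minus copper at 1 month (1.505) had 0.317 and 0.877, and a range of 1.19 to 2.09. Copper minus tantalum at 1 month (-0.15) was 0.12 against the other metals, 0.04 without copper replicate 3, and lay between -0.37 and 0.13 without single arrays. The other metals there left out tantalum and included nickel, whose Mt1 mean of 9.34 raised that reference, so 0.12 does not show copper level with the rest. Nickel minus cobalt at 3 months lay between 1.35 and 1.99, and the change of the nickel difference from 1 to 3 months between 1.16 and 2.05. Under an intensity trend with robust variances the 8 calls became 9, with Slc30a4 in nickel at 1 month added. The alternative with another probe set had no case, since each gene had 1. Leaving out an array from outside a comparison, or fitting fewer groups, left the difference itself as it was. Only the estimate of the spread, and with it the p-values, could change in those fits. The cause of the other shifts was not tested. Dim probe sets, Mt3 among them, have little signal over background, which limits what their differences show.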

Other observations

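With a looser core, TGCNCNC on either strand, the Mt1 promoter held 7 matches, and 0.0583% of promoters held as many. By rank over the 35 group means, the genes most like Mt1 after Mt2A were Mgst2 (0.717), C6 (0.691), Hmox1 (0.673) and Slc39a6 (0.650). Of the 4 genes other than Mt2A named for likeness by Pearson correlation, 0 were among these.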
